A study of Homo sapiens with 6 samples.

Results

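The genes described here are 51 genes of DNA replication and deoxynucleotide synthesis, chosen by name. They were the rows of the deposited tables whose gene symbol is one of the 51. All 51 were among the 21519 genes of the co-culture table, and 45 were among the 9450 genes of the knockdown table. The knockdown table lists only genes with a peak of 7-methylguanosine (m7G). The m7G of the mRNA cap and m7G inside the RNA were not told apart here. They fall into MCM2-7 helicase subunits (6 genes), origin licensing (4), helicase activation (7), DNA polymerases and primase (8), clamp and clamp loader (5), Okazaki fragment and single-strand DNA proteins (5), nucleotide synthesis (5), E2F factors and cyclin E (6) and S phase control (5).

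All libraries came from cultures of DLD1, a long-established line of human colorectal cancer cells, alone or with fibroblasts. The library S-CAFs-w13 is a co-culture of DLD1 with S-CAFs, fibroblasts that the series title describes as senescent. DLD1-W13CM was taken as the co-culture with CAFs by elimination, and its title does not say so. METTL1 knockdown input and control input are the unselected RNA of DLD1 cells carrying the short hairpin construct sh2 against METTL1, the catalytic subunit of an m7G methyltransferase, and of DLD1 cells carrying the control construct sh-NT, each beside an m7G immunoprecipitate (IP). The knockdown rests on 1 construct. Each of the 6 libraries is the single library of its group, so no difference here has a replicate check and none has a test; the series design speaks of replications, although 1 input and 1 IP library per construct are labelled.

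Replication starts when the origin recognition complex, CDC6 and CDT1 load the MCM2-7 helicase ring onto DNA. In S phase CDC45 and the GINS complex join the ring to make the active helicase, primase and the replicative polymerases copy both strands, and the PCNA clamp, loaded by replication factor C, tethers the polymerases and the enzymes that join Okazaki fragments. Ribonucleotide reductase and thymidylate synthase supply the deoxynucleotides. Many of these genes are transcribed at the G1/S transition under E2F factors, which RB family proteins hold in check, so their RNA is abundant in cycling cells.

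Levels are given in FPKM, in which the authors divided fragments by gene length and library size. The library sizes recovered from the values were 6215547 fragments for S-CAFs-w13, 6337932 for DLD1-W13CM, 11625162 for METTL1 knockdown input and 10454179 for control input. Folds are plain FPKM ratios with an exact 95% counting interval in parentheses, which covers counting error only. Reads given here, and the intervals that use them, rest on the smallest reads that the values allow. Where the true reads were more, the interval is wider than the counting error. A gene counted as past 2-fold has passed it as a log2 ratio of (FPKM + 1), which asks a larger ratio of low genes. Mitochondrial mRNAs made up 7.12% of the summed FPKM in S-CAFs-w13, against 17.9% in DLD1-W13CM. All mitochondrial genes, ribosomal RNAs included, held 15.4% of the reads in S-CAFs-w13 and 18.4% in DLD1-W13CM, by the smallest reads that the values allow. Leaving all mitochondrial genes out of the scaling kept all 51 genes below 0. Of 18 fibroblast markers, 10 were in the co-culture table and their summed level was 6.41 FPKM in S-CAFs-w13, against 6.49 FPKM in DLD1-W13CM, while COL1A2, COL3A1, DCN, LUM, FAP, PDGFRA, THY1 and POSTN were not listed. The markers within this sum moved in both directions. FN1, fibronectin, had 1.71 FPKM in S-CAFs-w13 and 3.12 FPKM in DLD1-W13CM, a ratio of 0.549 (0.456 to 0.658). PDGFRB, a growth factor receptor, had 0.564 FPKM in S-CAFs-w13 and 0.0221 FPKM in DLD1-W13CM, on 25 reads and 1 read (ratio 25.5, 4.17 to 1047). The collagen genes COL6A1 and COL1A1 had ratios of 11.2 (1.63 to 483) and 4.76 (1.33 to 25.8), on 11 and 14 reads in S-CAFs-w13 and 1 and 3 reads in DLD1-W13CM. The 10 colon epithelial markers summed to 3005 FPKM in S-CAFs-w13 and 2001 FPKM in DLD1-W13CM. Of the 9 that averaged 1 FPKM or more, CLDN4 and CEACAM5 were 2-fold higher, with ratios of 2.79 and 4.87, and CDX2 was 2-fold lower, with a ratio of 0.360, while EPCAM stood at 149 FPKM in S-CAFs-w13 and 154 FPKM in DLD1-W13CM. The part of these markers in the results was not tested. In such bulk RNA, fewer cells in S phase and less RNA per cell cannot be told apart.

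All 51 genes had a lower level in S-CAFs-w13 than in DLD1-W13CM. Of them, 33 were at least 2-fold lower and 0 were at least 2-fold higher, where 7.92% of the 14739 genes that averaged 1 FPKM or more were 2-fold lower and 9.08% were 2-fold higher. The summed level of the 51 genes was 443.5 FPKM in S-CAFs-w13, against 1128.2 FPKM in DLD1-W13CM, and their median log2 ratio was -1.21, against 0.02 over all genes. The counting interval lay wholly below a ratio of 1 for 49 of the 51 (25.4% of all genes), above 1 for 0 (28.2% of all genes) and wholly past 2-fold lower for 29 (3.54% of all genes). The exceptions to the first count were POLD1 and RFC4. All 51 had a mean of at least 1 FPKM; GINS3 and E2F2 were below 1 FPKM in S-CAFs-w13.

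**Figure D1:**
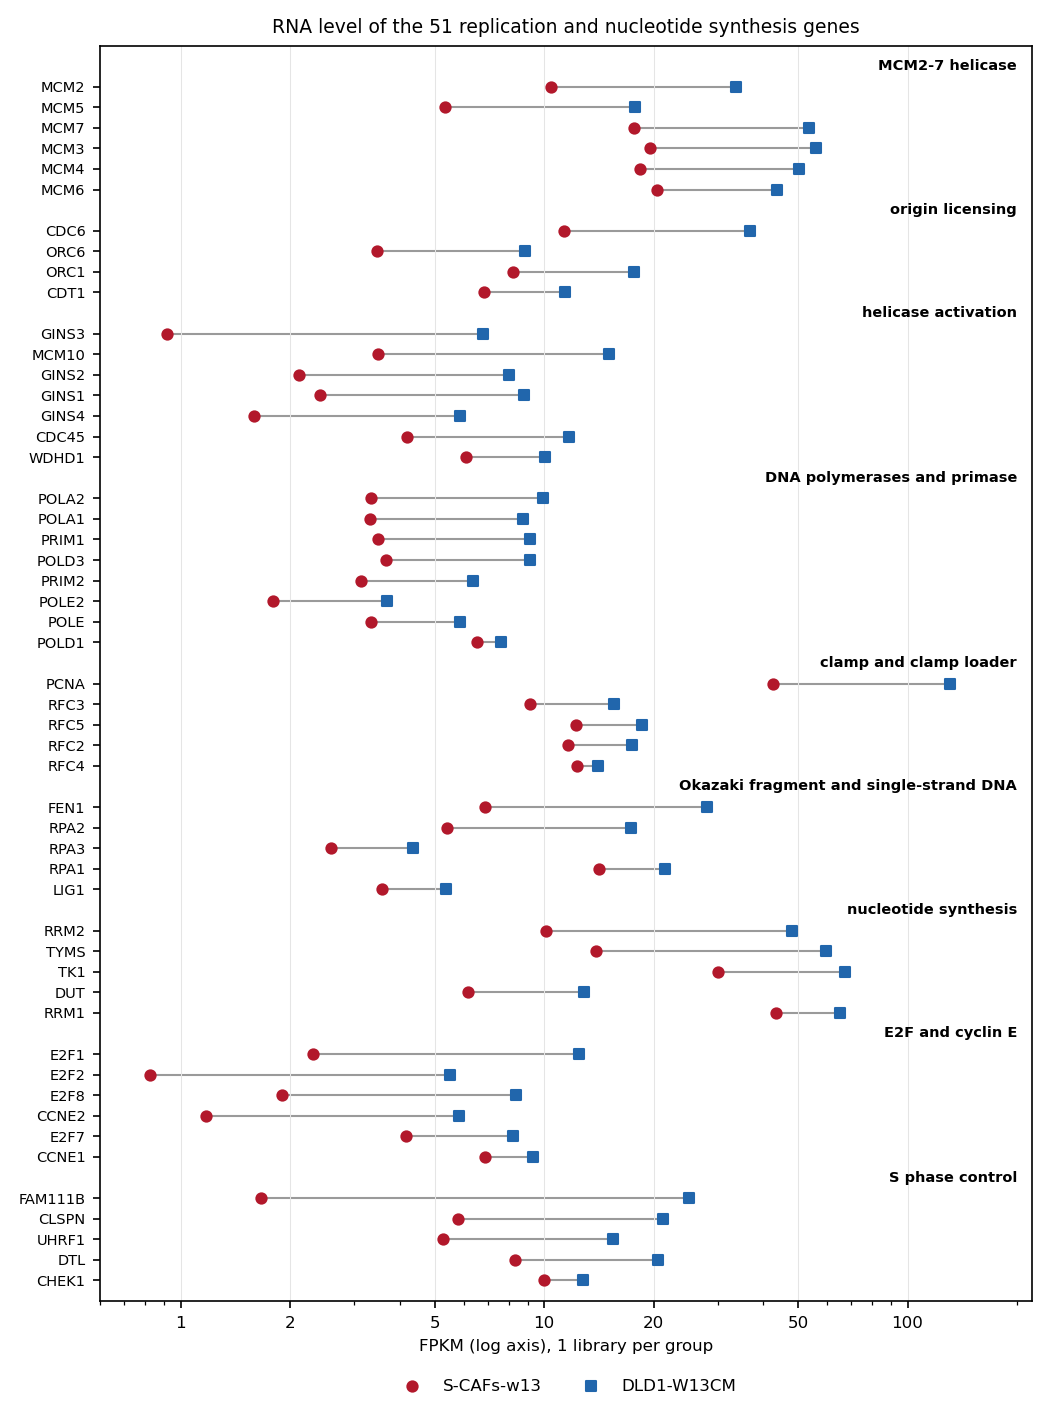
FPKM (log axis) of each of the 51 genes, grouped by role, in the library S-CAFs-w13 (red circles) and the library DLD1-W13CM (blue squares); each point is 1 library. Every red circle lies left of its blue square, with the longest line for FAM111B (1.67 and 25.1 FPKM) and the shortest for RFC4 (12.3 and 14.1 FPKM).

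The lower levels were spread unevenly over the machinery. The MCM2-7 ring, the activating factors and the E2F and cyclin E group had the lowest median log2 ratios, at -1.51, -1.52 and -1.67. The clamp and clamp loader and the Okazaki fragment and single-strand DNA proteins had medians of -0.57, and the polymerases and primase lay between them at -0.98. Origin licensing had a median of -1.08, nucleotide synthesis -1.14 and S phase control -1.40. Each group holds few genes, and these medians describe the pair of libraries.

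All 6 subunits of the MCM2-7 ring, the motor that unwinds DNA at the fork, were at least 2-fold lower. MCM5 had 5.33 FPKM in S-CAFs-w13, against 17.8 FPKM in DLD1-W13CM, 3.34-fold lower (2.89 to 3.87). MCM2 had 10.4 FPKM in S-CAFs-w13, against 33.7 FPKM in DLD1-W13CM, 3.23-fold lower (2.85 to 3.67) and the furthest from 0 on the log2(FPKM + 1) scale. MCM6 moved least, with 20.5 FPKM in S-CAFs-w13 and 43.8 FPKM in DLD1-W13CM, 2.14-fold lower (1.85 to 2.49). All 6 ring subunits, which are made from separate genes, lay between these ratios. The other subunits were among the 8 most abundant of the 51 genes along with MCM6. MCM3 had 19.5 FPKM in S-CAFs-w13 and 56.0 FPKM in DLD1-W13CM. MCM7 had 17.7 FPKM in S-CAFs-w13 and 53.6 FPKM in DLD1-W13CM, and MCM4 had 18.4 FPKM in S-CAFs-w13 and 50.4 FPKM in DLD1-W13CM.

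Of the 4 licensing factors, 3 were at least 2-fold lower. CDC6, the ATPase that works with the origin recognition complex to load the ring, had 11.3 FPKM in S-CAFs-w13, against 36.9 FPKM in DLD1-W13CM, 3.26-fold lower (2.90 to 3.68). CDT1, its loading partner, had 6.85 FPKM in S-CAFs-w13 and 11.4 FPKM in DLD1-W13CM, 1.67-fold lower (1.35 to 2.07), so the intervals of these partners did not overlap. The origin recognition subunits ORC1 and ORC6 were 2.16-fold lower (1.78 to 2.61) and 2.55-fold lower (2.001 to 3.28).

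Of the 7 genes that activate the helicase, 6 were at least 2-fold lower. GINS3, a subunit of the GINS complex, had 0.914 FPKM in S-CAFs-w13 and 6.80 FPKM in DLD1-W13CM, 7.44-fold lower (5.04 to 11.4) on 29 reads and 220 reads. The other GINS subunits, GINS1, GINS2 and GINS4, were 3.65-fold, 3.79-fold and 3.69-fold lower. MCM10, which helps the helicase start, had 3.48 FPKM in S-CAFs-w13 and 15.1 FPKM in DLD1-W13CM, 4.35-fold lower (3.55 to 5.35). CDC45, which joins the ring together with GINS, was 2.80-fold lower (2.14 to 3.70). WDHD1, which couples the helicase to polymerase alpha, stayed within 2-fold, with 6.10 FPKM in S-CAFs-w13 and 10.1 FPKM in DLD1-W13CM, 1.65-fold lower (1.41 to 1.95).

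Of the 8 polymerase and primase genes, 4 were at least 2-fold lower. POLA2, the second subunit of polymerase alpha, had 3.34 FPKM in S-CAFs-w13 and 9.92 FPKM in DLD1-W13CM, 2.97-fold lower (2.40 to 3.68). Its catalytic partner POLA1 was 2.63-fold lower (2.14 to 3.24), and PRIM1, the catalytic primase subunit, was 2.61-fold lower (1.89 to 3.65). POLD1, the catalytic subunit of lagging strand polymerase delta, had 6.52 FPKM in S-CAFs-w13 and 7.60 FPKM in DLD1-W13CM, a ratio whose interval spanned 1 (1.16-fold lower, 0.960 to 1.42). The accessory subunit of the same enzyme, POLD3, was 2.48-fold lower (2.01 to 3.08), and these intervals did not overlap. The genes for the leading strand enzyme, POLE and POLE2, and the primase subunit PRIM2 did not pass 2-fold on the log2(FPKM + 1) scale, with log2 ratios of -0.67, -0.74 and -0.84.

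The clamp and its loader differed in the size of the change. PCNA, the sliding clamp, was the most abundant of the 51 genes, with 42.5 FPKM in S-CAFs-w13, against 130.6 FPKM in DLD1-W13CM, 3.07-fold lower (2.74 to 3.45). The loader subunits RFC2, RFC3 and RFC5 were 1.50-fold, 1.70-fold and 1.52-fold lower, and none of them passed 2-fold. RFC4 had 12.3 FPKM in S-CAFs-w13 and 14.1 FPKM in DLD1-W13CM, 1.15-fold lower with an interval that spanned 1 (0.959 to 1.38). FEN1, the nuclease that trims Okazaki fragments, had 6.88 FPKM in S-CAFs-w13 and 28.1 FPKM in DLD1-W13CM, 4.08-fold lower (3.29 to 5.09). LIG1, the ligase that seals them, had 3.57 FPKM in S-CAFs-w13 and 5.37 FPKM in DLD1-W13CM, 1.50-fold lower (1.11 to 2.05). The single-strand DNA binding complex was split in the same way, since RPA2 was 3.20-fold lower (2.43 to 4.27) while RPA1 was 1.52-fold lower (1.36 to 1.71) and RPA3 was 1.68-fold lower (1.18 to 2.41).

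In nucleotide synthesis, RRM2, the regulated subunit of ribonucleotide reductase, had 10.1 FPKM in S-CAFs-w13 and 48.0 FPKM in DLD1-W13CM, 4.74-fold lower (4.21 to 5.34). RRM1, the subunit that carries the active site, had 43.4 FPKM in S-CAFs-w13 and 65.3 FPKM in DLD1-W13CM, 1.50-fold lower (1.39 to 1.62), so the subunits of this enzyme moved to different extents. TYMS, thymidylate synthase, had 13.9 FPKM in S-CAFs-w13 and 59.7 FPKM in DLD1-W13CM, 4.30-fold lower (3.71 to 5.02). TK1, the salvage thymidine kinase, had 30.1 FPKM in S-CAFs-w13 and 67.4 FPKM in DLD1-W13CM, 2.24-fold lower (1.97 to 2.55). DUT, which clears dUTP, had a log2 ratio of -0.95, just short of the 2-fold count, with 6.17 FPKM in S-CAFs-w13 and 12.8 FPKM in DLD1-W13CM.

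Among the regulators, the activators E2F1 and E2F2 had low ratios. E2F1 had 2.31 FPKM in S-CAFs-w13 and 12.5 FPKM in DLD1-W13CM, 5.39-fold lower (3.77 to 7.92), and E2F2 had 0.826 FPKM in S-CAFs-w13 and 5.49 FPKM in DLD1-W13CM, 6.65-fold lower (4.46 to 10.3). E2F8, an atypical E2F that represses, was 4.38-fold lower (3.20 to 6.10). Its relative E2F7 had 4.16 FPKM in S-CAFs-w13 and 8.21 FPKM in DLD1-W13CM and a log2 ratio of -0.84. The cyclins that drive CDK2 at S phase entry also differed from each other. CCNE2 had 1.17 FPKM in S-CAFs-w13 and 5.81 FPKM in DLD1-W13CM, with a counting interval of 3.38-fold to 7.50-fold lower. CCNE1 had 6.88 FPKM in S-CAFs-w13 and 9.34 FPKM in DLD1-W13CM, 1.36-fold lower (1.05 to 1.75).

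FAM111B, a protease whose RNA is cell cycle regulated, showed the lowest ratio of the 51 genes. It had 1.67 FPKM in S-CAFs-w13 and 25.1 FPKM in DLD1-W13CM, 15.1-fold lower (10.9 to 21.3) on 40 reads and 614 reads. CLSPN, the checkpoint mediator claspin, was 3.65-fold lower (3.11 to 4.30) and UHRF1, which brings DNA methyltransferase to new DNA, was 2.95-fold lower (2.47 to 3.53). DTL, the substrate receptor that marks CDT1 for destruction, was 2.47-fold lower (2.14 to 2.87). CHEK1, the kinase that claspin helps to activate, moved least of this group, with 9.98 FPKM in S-CAFs-w13 and 12.8 FPKM in DLD1-W13CM, 1.28-fold lower (1.12 to 1.46).

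**Figure D2:**
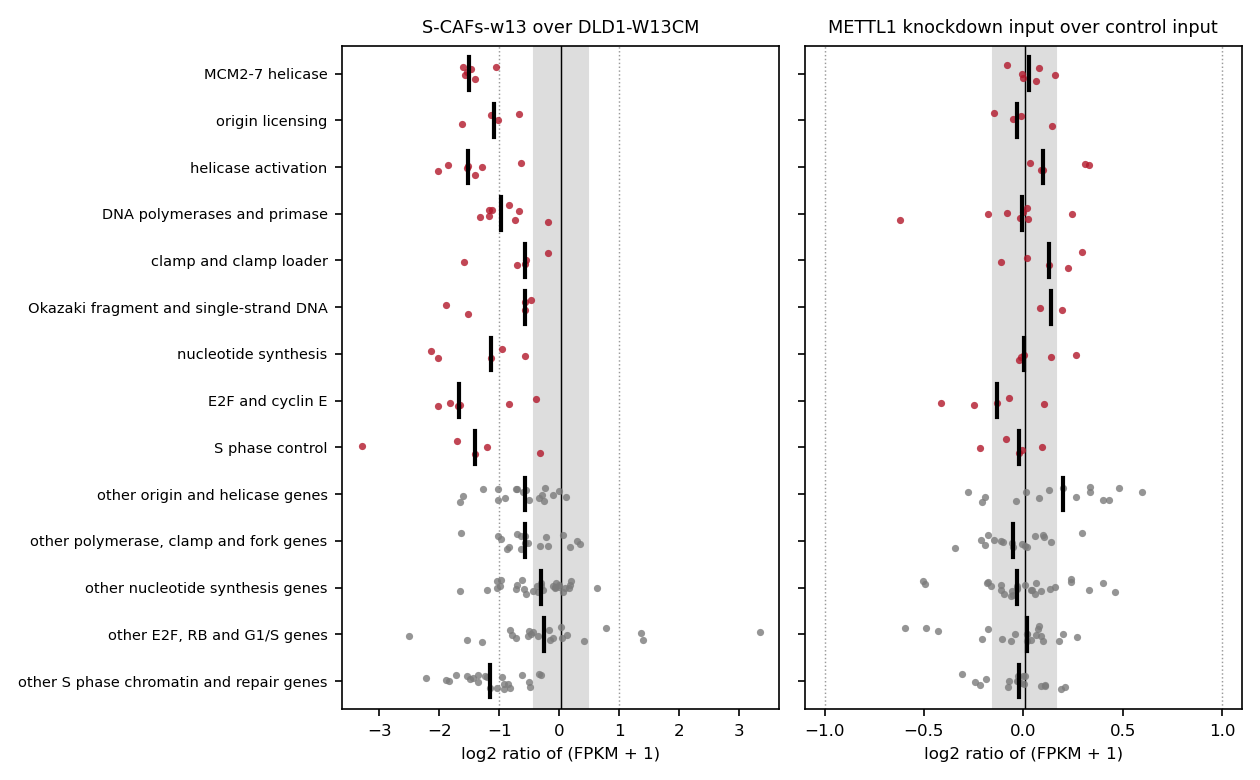
Log2 ratio of (FPKM + 1) for each gene (points) by role of the 51 genes (red) and for the lists of other pathway genes (grey) that averaged 1 FPKM or more, in the co-culture comparison (left) and the knockdown comparison (right), whose axes differ. Black bars are medians, the grey band and the thin line are the middle 50 percent and the median of all genes, dotted lines mark 2-fold; every red point on the left is below 0, and no red point on the right is past 2-fold.

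The promoter sequences of RefSeq (assembly GRCh38.p14, 250 bases before to 50 bases after each listed promoter start) were searched for E2F motifs on both strands. Among genes with a match, the promoter starts of UHRF1 and DUT differ from the gene starts used for peak distances. The UHRF1 windows were chr19:4909251-4909550 and chr19:4909894-4910193, against a gene start at 4903080. The DUT window was chr15:48331947-48332246, against a gene start at 48331095. The letters searched were TTTCCCGC, TTTGGCGC, TTTCGCGC and TTTGCCGC, and overlapping matches were each counted. Promoters were given for 42 of the 51 genes, and 23 of the 42 held a match (54.8%), against 3.99% of all 27305 genes with a promoter and 6.89% of 8669 genes that averaged 1 FPKM or more. The 5 lists of other pathway genes held a match in 22 of 95 promoters (23.2%). Of the 32 matches, 23 lay between 60 bases before and 15 bases after the start, in 20 genes. A CCAAT box (CCAAT) was in 25 of 42 promoters (59.5%), against 39.7% of all genes, 43.5% of genes that averaged 1 FPKM or more and 48.4% of the other pathway genes. A CHR element (TTTGAA or TTTAAA) was in 7 of 42 (16.7%), against 27.9% of all genes, 20.9% of genes that averaged 1 FPKM or more and 16.8% of the other pathway genes. A match describes letters in the sequence and not a bound factor. The 51 genes were chosen by their role in replication, so their share of matches describes that list and is not a test.

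The promoter stretches below end at the base before the start, run 5′ to 3′ on the gene's strand and have the matches in capitals. E2F1, E2F2, TYMS and PCNA are shown as genes with low ratios or high levels, MCM6 for its repeated pair of overlapping matches on opposite strands, and RFC3 and CDT1 as genes with a match that stayed within 2-fold. They lie at chr20:33686386-33686485 (minus strand, E2F1), chr1:23531234-23531333 (minus strand, E2F2), chr18:657553-657652 (plus strand, TYMS), chr20:5126623-5126722 (minus strand, PCNA), chr2:135876444-135876603 (minus strand, MCM6), chr13:33818049-33818148 (plus strand, RFC3) and chr16:88803689-88803788 (plus strand, CDT1).
E2F1: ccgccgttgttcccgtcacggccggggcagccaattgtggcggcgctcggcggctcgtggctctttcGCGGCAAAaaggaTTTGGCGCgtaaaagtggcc
E2F2: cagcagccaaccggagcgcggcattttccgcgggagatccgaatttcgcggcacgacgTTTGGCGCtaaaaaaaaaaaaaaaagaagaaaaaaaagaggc
TYMS: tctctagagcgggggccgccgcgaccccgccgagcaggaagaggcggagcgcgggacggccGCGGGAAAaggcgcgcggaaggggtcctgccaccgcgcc
PCNA: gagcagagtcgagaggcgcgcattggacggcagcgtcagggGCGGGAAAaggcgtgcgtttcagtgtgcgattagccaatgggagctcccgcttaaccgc
MCM6: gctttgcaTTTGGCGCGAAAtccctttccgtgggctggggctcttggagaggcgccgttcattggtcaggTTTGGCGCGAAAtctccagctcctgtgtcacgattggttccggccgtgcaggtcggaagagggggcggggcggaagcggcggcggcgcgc
RFC3: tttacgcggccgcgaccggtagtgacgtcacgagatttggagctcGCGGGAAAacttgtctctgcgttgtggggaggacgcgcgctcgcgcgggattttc
CDT1: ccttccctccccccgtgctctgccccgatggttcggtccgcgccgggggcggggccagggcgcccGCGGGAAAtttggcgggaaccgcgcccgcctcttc

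The 23 genes with a match had a median log2 ratio of -1.47 between S-CAFs-w13 and DLD1-W13CM, and 17 of them were at least 2-fold lower. The 19 genes without one had a median of -0.84, and 8 were at least 2-fold lower. The split did not follow the size of the change gene by gene. RRM2, MCM10 and FEN1 held none of the letters in the window and were each over 4 times lower, while RFC3, CDT1, POLE and LIG1 held a match and stayed within 2-fold.

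**Figure D3:**
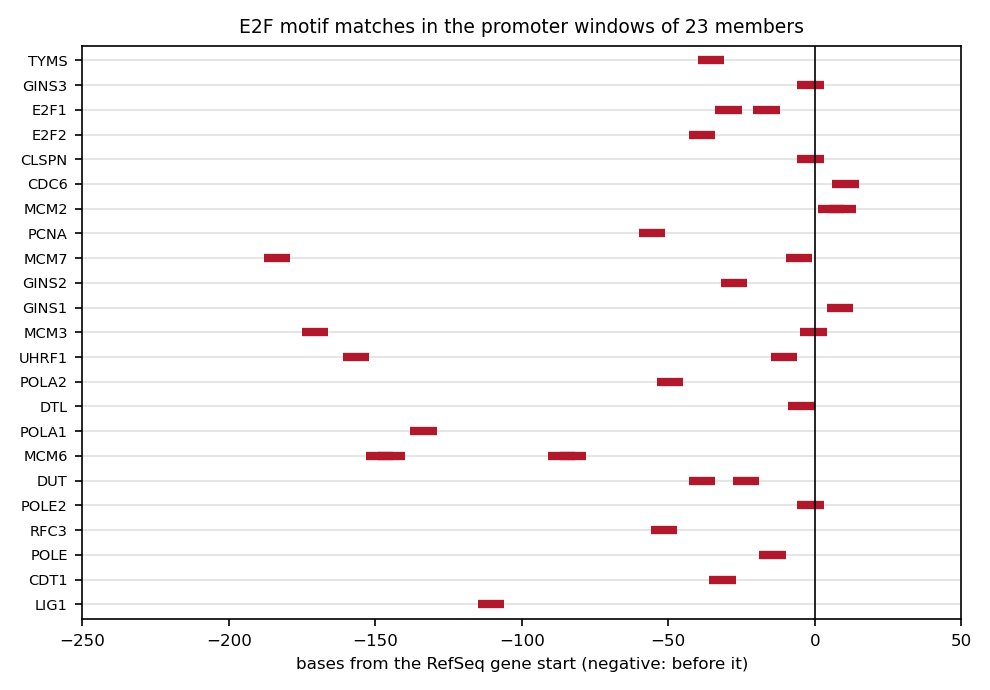
Position of each E2F motif match (red bars) in bases from the listed RefSeq promoter start for the 23 genes with a match. Genes are ordered from the lowest log2 ratio of S-CAFs-w13 over DLD1-W13CM (TYMS, top) to the highest (LIG1, bottom). The row of UHRF1 holds matches from separate promoters of that gene, and for UHRF1 and DUT the promoter start is not the gene start used for peak distances. Most bars lie close to the start: 23 of 32 matches are between 60 bases before and 15 bases after it.

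The wider pathway was taken from 5 lists of genes that are not among the 51. Together 110 of these genes averaged 1 FPKM or more, of which 27 were lower by 2-fold or more and 3 were higher by 2-fold or more in S-CAFs-w13, with a median log2 ratio of -0.55. The other S phase chromatin and repair genes stood closest to the 51, with 13 of 23 genes 2-fold lower, 0 higher and a median of -1.15. ASF1B, a histone chaperone, had 4.82 FPKM in S-CAFs-w13 and 26.1 FPKM in DLD1-W13CM. CHAF1A, a chromatin assembly factor subunit, had 2.77 FPKM in S-CAFs-w13 and 12.5 FPKM in DLD1-W13CM. The repair gene BRCA2 had 1.02 FPKM in S-CAFs-w13 and 6.53 FPKM in DLD1-W13CM. Of 18 other origin and helicase genes, 5 were 2-fold lower and 0 higher (median -0.58), led by TIPIN, GMNN and TIMELESS, which were 4.86-fold, 3.90-fold and 2.68-fold lower. Of 18 other polymerase, clamp and fork genes, 2 were 2-fold lower and 0 higher (median -0.57). Those were DSCC1, a subunit of an alternative clamp loader, with 2.84 FPKM in S-CAFs-w13 and 10.9 FPKM in DLD1-W13CM, and RNASEH2A, with 7.10 FPKM in S-CAFs-w13 and 15.4 FPKM in DLD1-W13CM. ATAD5, the third by distance from 0, was 2.31-fold lower in FPKM and had a log2 ratio of -0.98. In this list 14 genes were below 0 and 4 above 0. TOP2A, its most abundant gene, was among the higher ones, with 97.5 FPKM in S-CAFs-w13 and 78.8 FPKM in DLD1-W13CM (ratio 1.24, 1.18 to 1.30).

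The supply of nucleotides beyond the 5 genes above moved less, with 4 of 29 other nucleotide synthesis genes 2-fold lower, 0 higher and a median of -0.31. NME1, a nucleoside diphosphate kinase, and UMPS, of pyrimidine synthesis, were 2.68-fold and 2.39-fold lower. The list of other E2F, RB and G1/S genes was mixed, with 3 of 22 genes 2-fold lower and 3 higher. CDC25A, the phosphatase that activates CDK2, had 2.70 FPKM in S-CAFs-w13 and 19.9 FPKM in DLD1-W13CM, 7.38-fold lower (5.73 to 9.63). RBL1, which codes for p107, had 2.08 FPKM in S-CAFs-w13 and 7.98 FPKM in DLD1-W13CM. The inhibitor gene CDKN1C, which codes for the CDK inhibitor p57, had 14.7 FPKM in S-CAFs-w13, against 0.549 FPKM in DLD1-W13CM, 26.7-fold higher (13.8 to 59.2). RBL2, which codes for the RB relative p130 of quiescent cells, had 17.4 FPKM in S-CAFs-w13 and 5.99 FPKM in DLD1-W13CM, and CDKN1B, which codes for the inhibitor p27, had 34.9 FPKM in S-CAFs-w13 and 12.97 FPKM in DLD1-W13CM.

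The knockdown comparison asks what happens to the same genes when METTL1 itself is reduced. METTL1 had 3.28 FPKM in METTL1 knockdown input, against 5.80 FPKM in control input, 1.77-fold lower (1.37 to 2.29). In the co-culture libraries METTL1 had 1.78 FPKM in S-CAFs-w13, against 4.82 FPKM in DLD1-W13CM, 2.71-fold lower (1.75 to 4.29), a wider gap than in the knockdown by its central value, with intervals that overlap.

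None of the 45 genes listed in the knockdown table was past 2-fold in either direction. Over all 8400 genes that averaged 1 FPKM or more there, 0.56% were 2-fold lower and 0.429% were 2-fold higher, so a count of 0 is near the background. The 45 genes summed to 1691 FPKM in METTL1 knockdown input and 1645 FPKM in control input. Their median log2 ratio was 0.0029, against 0.0064 over all genes, with 22 genes below and 23 above a ratio of 1. The counting interval lay below 1 for 8 genes (22.9% of all genes) and above 1 for 12 genes (24.7% of all genes), and it lay wholly past 2-fold lower for 0 (0.369% of all genes). GINS3, WDHD1, LIG1, RPA1, RPA2 and CCNE2 were not listed there and were not analysed in this comparison.

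**Figure D4:**
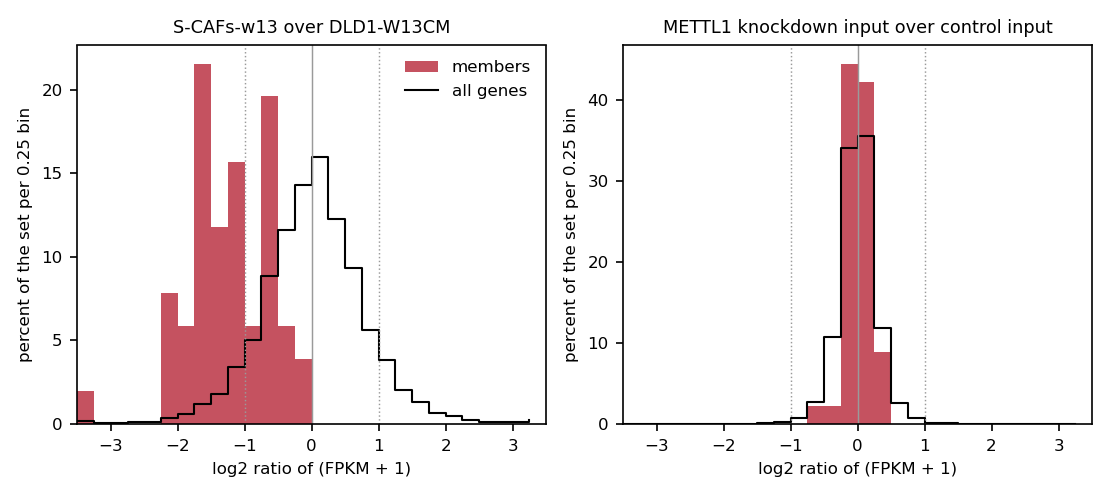
Share of the replication and nucleotide synthesis genes (red bars) and of all genes that averaged 1 FPKM or more (black line) per bin of 0.25 of the log2 ratio of (FPKM + 1), for S-CAFs-w13 over DLD1-W13CM (left, 51 genes) and METTL1 knockdown input over control input (right, 45 genes); values past the axis stand in the end bins and dotted lines mark 2-fold. The red bars on the left lie wholly below 0 with a median of -1.21, and those on the right lie around 0 with a median of 0.0029.

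The largest changes in the knockdown were in genes of several roles. POLE2 had 1.72 FPKM in METTL1 knockdown input and 3.17 FPKM in control input, 1.85-fold lower (1.32 to 2.60) on 59 reads and 98 reads. E2F8 had 6.82 FPKM in METTL1 knockdown input and 9.43 FPKM in control input, 1.38-fold lower (1.19 to 1.605). Both were also lower in S-CAFs-w13 than in DLD1-W13CM. The other 3 of the 5 furthest from 0 were higher in the knockdown, the opposite side from the co-culture. CDC45 had 34.3 FPKM in METTL1 knockdown input and 27.1 FPKM in control input, a ratio of 1.27 (1.16 to 1.39). GINS4 had 14.9 FPKM in METTL1 knockdown input and 11.8 FPKM in control input, a ratio of 1.26 (1.14 to 1.40), and RFC3 had 14.1 FPKM in METTL1 knockdown input and 11.3 FPKM in control input, a ratio of 1.25 (1.08 to 1.44).

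Several genes with low ratios in the co-culture stood near 1 in the knockdown, while E2F8 had a knockdown ratio of 0.723 (0.623 to 0.838). GINS3 and CCNE2, also low in the co-culture, were not listed there. FAM111B had 18.1 FPKM in METTL1 knockdown input and 18.4 FPKM in control input, and RRM2 had 21.7 FPKM in METTL1 knockdown input and 22.05 FPKM in control input. E2F1 had 26.4 FPKM in METTL1 knockdown input and 29.1 FPKM in control input, a ratio of 0.908 whose interval reached 1 (0.820 to 1.00). TYMS was the most abundant of the genes in this table, with 295 FPKM in METTL1 knockdown input and 269 FPKM in control input, a ratio of 1.0997 (1.07 to 1.14). PCNA had 146 FPKM in METTL1 knockdown input and 158 FPKM in control input, a ratio of 0.926 (0.875 to 0.979), and RRM1 had 88.2 FPKM in METTL1 knockdown input and 89.0 FPKM in control input. TK1 had 99.6 FPKM in METTL1 knockdown input and 99.4 FPKM in control input. CHEK1 and CCNE1, which moved least of their groups in the co-culture, had ratios of 0.847 (0.768 to 0.934) and 0.833 (0.725 to 0.956).

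The other pathway genes also stayed within 2-fold in the knockdown, with 0 of 97 past it in either direction and a median log2 ratio of 0.0068. The 3 genes furthest from 0 in the other origin and helicase list were higher. ORC5, an origin recognition subunit, had 8.64 FPKM in METTL1 knockdown input and 5.37 FPKM in control input, a ratio of 1.61 (1.36 to 1.92). DBF4B and CDC7, the regulatory and catalytic sides of a kinase that fires origins, had ratios of 1.53 (1.29 to 1.82) and 1.44 (1.17 to 1.77). In the other lists the gene furthest from 0 was POLH (ratio 0.734, 0.572 to 0.941), RRM2B (0.654, 0.552 to 0.774), CDKN2D (0.581, 0.385 to 0.870) and BRIP1 (0.768, 0.665 to 0.887). CHTF18 and ATAD5 followed POLH with ratios of 1.24 and 0.842, and MTHFD2 and TK2 followed RRM2B with ratios of 0.702 and 1.66. CDKN2C and CDKN2B, which code for inhibitors of CDK4 and CDK6, followed CDKN2D with ratios of 0.633 and 0.654, and FANCI stood with BRIP1 among the 3 furthest of its list, with a ratio of 0.853.

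The m7G data list 1 peak for each of the 45 genes. Genes that averaged 1 FPKM or more in the co-culture table were listed with a peak in 56.5% of cases, and those that averaged 5 FPKM or more in 70.4%. The authors' deposited table places 23 of the 45 peaks in the 5′ UTR (51.1%, against 49.5% of all 9450 peaks), 19 in the CDS (42.2%, against 29.5%) and 3 in another exon (6.67%, against 18.6%). It places 0 of them in the 3′ UTR. Over the 8528 peaks of protein-coding genes the shares were 54.8% in the 5′ UTR, 32.5% in the CDS and 10.0% in another exon. By position, 27 of 44 peaks that lie in the RefSeq span of their gene began within 250 nt of the gene start (61.4%), against 63.3% of 8402 genes; the peak listed for MCM7 lies outside its RefSeq span. Several peaks annotated as CDS begin at the gene start, those of TYMS, E2F1, MCM3 and MCM6 among them, so the annotation and the distance from the start are different descriptions.

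In the authors' deposited table the fold enrichment, taken as IP over input, had a median of 16.0 over the 45 peaks, against 12.4 over all peaks. TYMS had the highest fold enrichment of the 45 in the authors' deposited table, 92.3, at chr18:657604-658277 (plus strand, GRCh38). CDC6 followed in the authors' deposited table with 68.0 in the 5′ UTR, and RFC3 with 55.1 in the 5′ UTR. The lowest fold enrichments in the authors' deposited table were 1.34 for UHRF1, 1.48 for MCM2 and 1.81 for MCM5. These low peaks begin 26252 nt, 5860 nt and 21966 nt from the gene start, whereas the high ones begin within 250 nt of it. Peaks that began within 250 nt of the start had a median fold enrichment of 21.8 in the authors' deposited table (27 genes). Those that began further away, before or after the start, had 10.9 (17 genes). Over all genes these medians were 15.2 and 7.45. In the group of 17, the peaks of CDT1, MCM4, GINS2, RRM2, RFC5 and POLD3 began before the start and ran over it. Their fold enrichments in the authors' deposited table were 23.3, 20.9, 13.4, 9.83, 41.2 and 23.3.

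**Figure D5:**
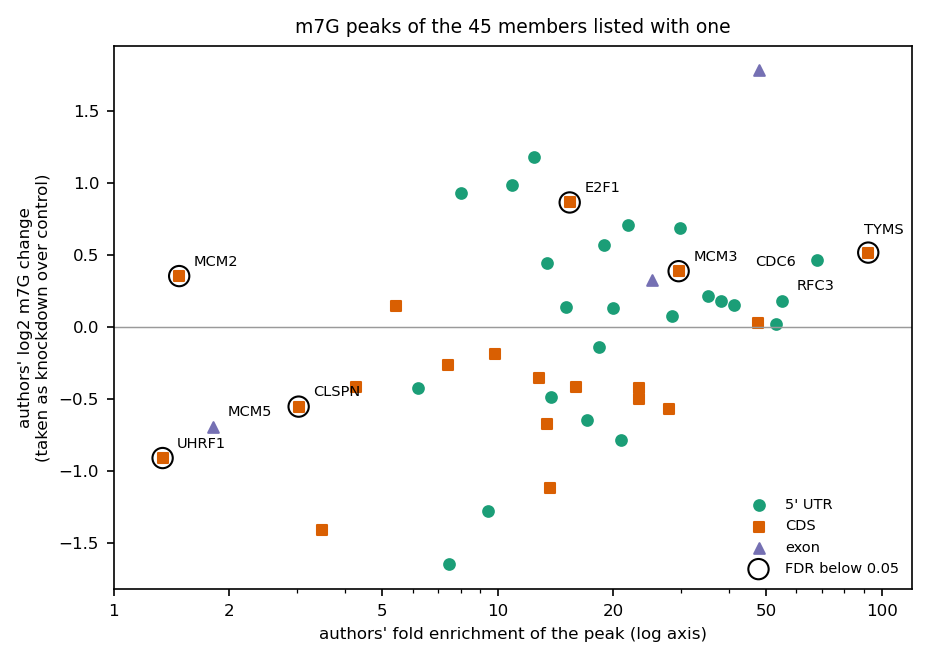
Authors' log2 m7G change, taken as METTL1 knockdown over control, against the authors' fold enrichment of the peak (log axis) for the 45 genes with a listed peak, by annotated location (5′ UTR, CDS or exon); rings mark an FDR below 0.05. The points lie on both sides of 0, and the ringed peaks are TYMS (0.51), E2F1 (0.86), MCM3 (0.39), MCM2 (0.35), CLSPN (-0.56) and UHRF1 (-0.91).

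The m7G change did not run in one direction. The authors' deposited table gives a higher m7G value for 24 and a lower value for 21 of the 45 genes, with a median log2 change of 0.02, if the change is knockdown over control as assumed; which line is the numerator is not stated. The authors' FDR was below 0.05 for 6 of the 45, where 5.25% of all 9450 peaks passed. Of these, 4 were higher (3.07% of all peaks) and 2 lower (2.18% of all peaks). All 6 are annotated as CDS peaks. Of all 2784 peaks in the CDS, 136 passed as higher and 95 as lower. Of all 4680 peaks in the 5′ UTR, 101 passed as higher and 79 as lower. The share that passed differed with level. Over all peaks it was 22.2% at a mean input of at least 50 FPKM and 11.5% between 20 and 50 FPKM. It was 4.57% between 5 and 20 FPKM and 1.06% below 5 FPKM. The genes that passed here had input levels of at least 20 FPKM, with 3 of 13 genes passing between 20 and 50 FPKM and 3 of 9 at 50 FPKM or more. Between 5 and 20 FPKM 0 of 20 genes passed, and below 5 FPKM 0 of 3.

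The 6 genes differ in kind. For TYMS the authors' deposited table gives a log2 m7G change of 0.51 (FDR 1.41e-06). E2F1 follows in the authors' deposited table with 0.86 (FDR 0.0195), at chr20:33679960-33686404 (minus strand). MCM3 stands in the authors' deposited table with 0.39 (FDR 0.0316), at chr6:52283302-52284881 (minus strand). These peaks begin within 250 nt of the gene start and had fold enrichments between 15.4 and 92.3. The remaining peaks lie inside the gene and had fold enrichments of 3.03 or less. The change of MCM2 was 0.35 (FDR 0.00741) in the authors' deposited table, at chr3:127604271-127604985 (plus strand). That of UHRF1 was -0.91 (FDR 0.0145) in the authors' deposited table, at chr19:4929332-4930720 (plus strand). That of CLSPN was -0.56 (FDR 0.0468) in the authors' deposited table, at chr1:35751252-35760403 (minus strand).

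The RNA level of these genes in the knockdown moved less than their m7G value on the log2 scale. Their log2 ratios of (FPKM + 1) were 0.14 for TYMS, -0.14 for E2F1 and 0.08 for MCM3. For MCM2, UHRF1 and CLSPN they were 0.16, 0.09 and -0.09. The counting interval of the RNA ratio lay above 1 for TYMS, MCM3, MCM2 and UHRF1, and it spanned 1 for E2F1 and CLSPN. The ratio of METTL1 knockdown input to control input was 1.0997 for TYMS, 0.908 for E2F1, 1.06 for MCM3, 1.12 for MCM2, 1.07 for UHRF1 and 0.941 for CLSPN. By annotated location, the 5′ UTR peaks were higher in 16 genes and lower in 7, and the CDS peaks were higher in 6 and lower in 13, in the authors' deposited table. Over all peaks the same counts were 2376 higher and 2243 lower in the 5′ UTR, and 1407 higher and 1365 lower in the CDS. Most of these changes did not pass the FDR.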

How the data were processed

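RNA of DLD1 cultures, co-cultures with fibroblasts among them, was sequenced in 6 libraries, with 1 library in each group. Expression was deposited as FPKM; for the input columns of the knockdown table, this unit was inferred from the values. The authors also deposited log2 fold changes with p-values. Per the file headers, each peak has a fold enrichment, a log2 m7G change and its p-value and FDR as log10. The fold enrichment was taken as a ratio of IP to input, and the libraries over which it was computed are not stated. Per the submitters' processing notes the tools were HISAT2 2.1.0, featureCounts 1.6.3, cutadapt 2.5, SAMtools 1.10, HOMER 4.10.4 and DESeq2, with GRCh38, GRCm38 and hg38 as builds, in roles not stated; the peak caller and the strand setting of the counting are not given in the sources used here. Peak positions were read as GRCh38 since 98.7% of 8515 peaks lie in the GRCh38.p14 span of the same symbol.

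Levels were compared as log2((FPKM + 1)/(FPKM + 1)) over genes averaging 1 FPKM or more. The ratio of FPKM columns was a ratio of whole numbers to a relative tolerance of 1e-12 for all 20806 and 9348 genes above 0 in both libraries of a table; RefSeq lengths of 6 mitochondrial genes then gave the library sizes of the co-culture table and its gene lengths, and these lengths, carried over to the knockdown table, gave its library sizes. For 20745 and 9292 genes this gave the smallest whole reads that the values allow. Of 9091 genes with a length from both tables, 73.4% had the same smallest length, and for the others the least common multiple was used where it was within the limits of the search. Exact (Clopper-Pearson) 95% intervals of the ratio rest on these reads, and they cover counting error only. The recovery was tested on simulated data. With 1 library a group there is no test across libraries. Values in every library were given for the genes furthest from and nearest to 0 of each role, the 8 most abundant genes, the 5 furthest from 0 in the knockdown, peaks past the FDR or with the 3 highest or lowest fold enrichments, and the 3 furthest from 0 of each pathway list. Some genes that this rule names are not reported here. The 250 nt limit and the distance of peaks from the start were chosen after the values were seen. The genes and lists were chosen with earlier results of these data known. Python 3.11.15, pandas 2.3.3, numpy 2.4.6 and scipy 1.17.1 were used.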

Additional observations from a re-analysis of the deposited data

How the results depend on the processing

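No paired analysis was possible because each group holds 1 library and the labels give no shared replicate numbers; no library could be left out for the same reason. The count of the 51 genes lower by 2-fold or more in S-CAFs-w13 ran from 29 of 42 (mean of at least 5 FPKM) to 37 of 51 (the authors' deposited log2 fold change), against 33 of 51 as reported, and all of the genes measured stayed below 0 under the 6 alternatives run. With the authors' deposited log2 fold change, 16.2% of all genes were 2-fold lower, the median of the 51 was -1.54, the median of all genes was -0.12, and 41 of 110 other pathway genes were 2-fold lower, against 27 as reported; the median shift of that fold change from the FPKM ratio was -0.14. In the knockdown 0 genes passed 2-fold under the 5 alternatives run, and rescaling without mitochondrial genes was not run there because that table lists none. At a p-value below 0.05 in place of the FDR, 17 of the 45 m7G changes passed, against 6, where 16.1% of all peaks passed. The median fold enrichment was 15.7 for genes of at least 5 FPKM, and 23 and 21 of 42 promoters held an E2F match with 150 bases before the start and with TTTCCCGC and TTTGGCGC only. Depth limits the lowest genes: E2F2 rests on 28 reads in S-CAFs-w13 and POLE2 on 59 in METTL1 knockdown input.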

Other observations

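Ratios of levels between genes that share a complex, a task or a family were computed for 9 pairs, and they differed between the co-culture libraries to different extents. The closest was POLE2, at 0.539 of POLE in S-CAFs-w13 and 0.627 of it in DLD1-W13CM, and at 0.102 of it in METTL1 knockdown input and 0.178 of it in control input. MCM2 stood at 0.510 of MCM6 in S-CAFs-w13 and 0.769 of it in DLD1-W13CM. RRM2 stood at 0.233 of RRM1 in S-CAFs-w13 and 0.734 of it in DLD1-W13CM, while the same ratio was 0.246 in METTL1 knockdown input and 0.248 in control input. CCNE2 stood at 0.170 of CCNE1 in S-CAFs-w13 and 0.622 of it in DLD1-W13CM. E2F1 stood at 0.556 of E2F7 in S-CAFs-w13 and 1.52 times it in DLD1-W13CM, and at 4.45 times it in METTL1 knockdown input and 5.33 times it in control input. POLD3 stood at 0.564 of POLD1 in S-CAFs-w13 and 1.20 times it in DLD1-W13CM. GINS3 stood at 0.379 of GINS1 in S-CAFs-w13 and 0.772 of it in DLD1-W13CM. CDC6 stood at 1.65 times CDT1 in S-CAFs-w13 and 3.22 times it in DLD1-W13CM, and PCNA at 3.46 times RFC4 in S-CAFs-w13 and 9.26 times it in DLD1-W13CM. The tables were normalized separately, so these ratios are read within a table. They were chosen after the values were seen.

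Across the genes, the order of levels was largely shared between libraries. Spearman's rho over the 51 genes was 0.83 between S-CAFs-w13 and DLD1-W13CM, and over 45 genes it was 0.99 between METTL1 knockdown input and control input. Over the same 45 genes rho of levels was 0.81 between DLD1-W13CM and control input. For the changes of these 45 genes, rho was 0.04 between the co-culture and the knockdown log2 ratios, which come from separate experiments. Between the knockdown log2 ratio and the m7G change it was -0.07. These values describe genes that share libraries and are not tests.

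Of the 51 genes, 28 overlap another RefSeq gene and 10 overlap a protein-coding one; whether the counting used strand is not stated. RRM1 overlaps none in the RefSeq table, although the co-culture table lists RRM1-AS1, an antisense RNA by its name, which had 24.6 FPKM in S-CAFs-w13 and 55.6 FPKM in DLD1-W13CM. TYMSOS had 6.10 FPKM in S-CAFs-w13 and 16.8 FPKM in DLD1-W13CM, and TYMS overlaps 2 RefSeq genes. Of the DUT pseudogenes, DUTP2 had 0.695 FPKM in S-CAFs-w13 and 13.97 FPKM in DLD1-W13CM, DUTP6 had 1.74 FPKM in S-CAFs-w13 and 1.71 FPKM in DLD1-W13CM, and DUTP7 had 1.32 FPKM in S-CAFs-w13 and 0.325 FPKM in DLD1-W13CM. The values of TYMS and DUT are uncertain where reads could be shared.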
